A study of Arabidopsis thaliana with 6 samples.

Results

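Reported targets of nonsense-mediated mRNA decay (NMD) were followed in leaves of Arabidopsis thaliana through 4 genes: AT1G36730, which encodes the translation initiation factor eIF5; AT5G45430, a protein kinase gene; AT2G29210, which encodes a splicing protein with a PWI domain; and AT3G63340, which encodes a protein with kinase and phosphatase regions. They were chosen by locus as reported decay targets, with earlier results of these data already known. Each was read through 1 probe set, the brightest of those assigned to that gene alone. They make up 4 of 13333 genes with a probe set of their own, meaning one that the platform annotation assigns to that gene alone. That annotation lists no gene for 8794 of 22810 probe sets, so a gene without one may still be on the array. All 4 could be read and all 4 passed the filter on dim probe sets, a mean signal of 20 units over the 6 arrays.

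The tested plants were the double mutant pad4-1 est1b-1, which carries the est1b-1 mutation together with pad4-1, and are called pad4 est1b below. They were set against the pad4-1 single mutant (stock N3806, AT3G52430), called pad4. Both groups therefore lack PAD4, a protein that promotes salicylic acid signalling in defence, both are in the Columbia background (Col-0 for the double mutant and Col for pad4), and no plant without pad4-1 was measured. Each group has 3 ATH1 arrays of total RNA from leaves. The labels give a developmental stage of 5.10 weeks and rosette leaves for the 3 pad4 est1b samples and pad4 replicate 1. For pad4 replicates 2 and 3 they give 3.90 weeks and leaves, although the growth text is the same for all. Whether 5.10 and 3.90 count age or name a growth stage was not checked, and below they serve only as labels. They do not say whether replicates came from separate plants, so each p-value reflects the spread among these samples only, which may be technical.

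NMD removes transcripts on which a ribosome stops too early, and also many normal transcripts with upstream reading frames, long 3' ends or introns behind the stop codon. UPF1, its central helicase, acts together with UPF2 and UPF3 to mark such transcripts for degradation. When the pathway is impaired, direct targets are expected to accumulate, which is why transcripts like these serve as its readout. An array signal is a steady-state level, so slower decay and more synthesis cannot be told apart, and neither can more RNA per cell and more cells of one type.

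Some features of the arrays touch every value below. The genotypes were taken from the labels. The summed signal of an array was between 3405664 and 3894818 units, and the first principal component, with 64.9% of the variance, had both replicate 1 arrays at one end and both replicate 3 arrays at the other. RNA integrity was read from the log2 ratio of 3' over 5' control probe sets, averaged over actin and GAPDH, and called the 3'/5' ratio below; it was 1.37, 1.82 and 1.75 in pad4 est1b replicates 1, 2 and 3, against 1.21, 1.63 and 2.00 in the same replicates of pad4, so its ranges overlapped. Of 13 leaf markers 2 could be read, RCA and LHCB4.2, and their summed signal was 12371 to 17910 units in pad4 est1b and 13772 to 14287 units in pad4. Of 5 root markers 3 could be read, with sums of 4.25 to 26.2 units in pad4 est1b and 4.15 to 15.5 units in pad4, and the 1 readable pollen marker of 2 was at 0.626 to 16.7 units and 1.49 to 3.24 units. The annotation gave the 5 flower and 3 seed markers no probe set of their own, so they could not be read.

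Of the 4 genes, the eIF5 and kinase genes had signals about 5 times as high in pad4 est1b as in pad4, with no overlap between the groups. The PWI and kinase/phosphatase genes had smaller positive differences and overlapping groups. None of the 4 passed the test over all probe sets (limma, adjusted p under 0.05), which called 5 of 12804 probe sets (0.0391%), all higher. At an unadjusted p under 0.05 limma gave 2 of the 4 genes and 569 of the 12804 probe sets (4.44%). Fold changes are given for pad4 est1b over pad4 on the log2(signal + 10) scale, which understates differences of dim genes. The median of the 4 was 1.49, against 0.03 over all probe sets kept. Because the 4 genes were chosen with earlier results of these data known, these comparisons with all probe sets are a description only.

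**Figure D1:**
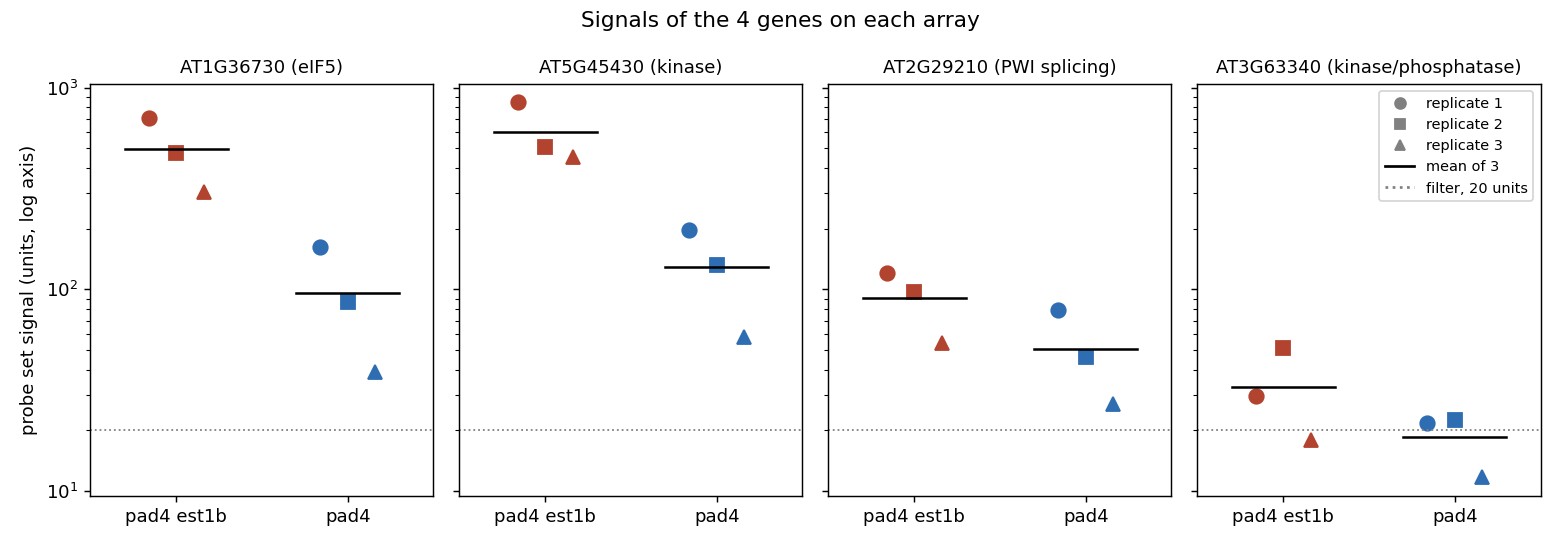
Signal of each gene's probe set (units, log axis) on each of the 6 arrays, pad4 est1b left and pad4 right in each panel; point shapes give the replicate number, bars the mean of 3 arrays and the dotted line the filter of 20 units. For AT1G36730 and AT5G45430 every pad4 est1b array lies above every pad4 array, and for AT2G29210 and AT3G63340 the groups overlap.

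eIF5 is the GTPase-activating protein of the scanning ribosome: it triggers hydrolysis of the GTP held by eIF2 when the start codon is found. AT1G36730 had 709, 477 and 303 signal units in pad4 est1b replicates 1, 2 and 3, against 163, 87.1 and 38.8 units in pad4 replicates 1, 2 and 3. The lowest pad4 est1b array was 1.86 times the highest pad4 array. In both genotypes replicate 1 had the highest and replicate 3 the lowest value. Mean signals were 496 ± 203 units in pad4 est1b and 96.3 ± 62.7 units in pad4 (SD, n = 3 each).

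The log2 fold change of AT1G36730 was 2.35 ± 0.49 (SE), a 5.11-fold difference with a 95% interval of 2.33 to 11.2. It was the 7th highest of the 12804 probe sets kept, of which 15 had a log2 fold change of 2 or more. It did not pass the test (limma adjusted p = 0.46). Relative to all other probe sets on the same array, which does not depend on scaling, the gene stood at the percentiles 95.9, 93.5 and 89.5 in pad4 est1b replicates 1, 2 and 3 and at 81.8, 71.7 and 61.4 in those of pad4.

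AT5G45430 encodes a protein kinase of the CMGC group, the group that holds cyclin-dependent and MAP kinases, and resembles the animal male germ cell-associated kinase. Its signals were 847 (replicate 1), 508 (replicate 2) and 452 units (replicate 3) in pad4 est1b. In pad4 they were 197 (replicate 1), 132 (replicate 2) and 57.9 units (replicate 3). The groups did not overlap, the lowest pad4 est1b array being 2.29 times the highest pad4 array, and replicate 3 was again lowest in both genotypes.

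Mean signals of AT5G45430 were 602 ± 214 units in pad4 est1b and 129 ± 69.6 units in pad4 (SD, n = 3 each). The log2 fold change was 2.23 ± 0.44 (SE), or 4.68-fold with a 95% interval of 2.32 to 9.47, the 9th highest of the probe sets kept. This gene did not pass either (limma adjusted p = 0.39). On the arrays it ranked between the percentiles 92.9 and 96.7 in pad4 est1b and between 68.5 and 84.6 in pad4.

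Groups without overlap, higher in pad4 est1b, were found for 2 of the 4 genes and for 821 of the 12804 probe sets (6.41%). An exact two-sided permutation test over 3 and 3 arrays gave p = 0.1 for each of these 2 genes, which is the smallest value this design allows. Both genes passed limma's test when the 3'/5' ratio was entered as a covariate, with adjusted p = 0.0062 for AT1G36730 and 0.0053 for AT5G45430, in a fit that called 36 probe sets higher (0.281%). Of 20 alternative fits, each of these 2 genes was called in 3 and not called in 17. The part of RNA integrity in this was not tested. Among the samples labelled 5.10 weeks, which leave pad4 replicate 1 alone against the 3 pad4 est1b arrays and assume that it varies like them, their log2 fold changes were 1.47 and 1.51 (limma adjusted p = 0.98 for each), so stage and genotype are told apart by 1 array only.

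PWI domains bind nucleic acids and occur in splicing coactivators of the SRm160 type, the animal relatives of the AT2G29210 protein. AT2G29210 had 120, 97.3 and 54.5 units in pad4 est1b replicates 1, 2 and 3. Its pad4 values were 79.2, 46.0 and 27.0 units. The groups overlapped, since pad4 replicate 1 lay above pad4 est1b replicate 3. Within each genotype replicate 1 was highest and replicate 3 lowest, as for the eIF5 and kinase genes.

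AT2G29210 averaged 90.6 ± 33.2 units in pad4 est1b and 50.7 ± 26.4 units in pad4 (SD, n = 3 each), a log2 fold change of 0.76 ± 0.40 (SE) with a 95% interval of -0.16 to 1.68. It did not pass (limma adjusted p = 1.00). The value was 0.11 among the samples labelled 5.10 weeks and 0.45 without pad4 replicate 3.

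AT3G63340 encodes a predicted protein that joins a protein kinase region to a protein phosphatase 2C region. It was the dimmest of the 4, with 29.5, 51.3 and 17.8 units in pad4 est1b replicates 1, 2 and 3. Its pad4 values were 21.7, 22.4 and 11.7 units. The highest array was pad4 est1b replicate 2, the groups overlapped, and replicate 3 was lowest in each genotype. Its pad4 mean lay under the filter of 20 units and its pad4 est1b mean above it.

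AT3G63340 averaged 32.9 ± 17.0 units in pad4 est1b and 18.6 ± 5.97 units in pad4 (SD, n = 3 each). Its log2 fold change was 0.53 ± 0.35 (SE), with a 95% interval of -0.27 to 1.33, and did not pass (limma adjusted p = 1.00). It was 0.24 without pad4 est1b replicate 2, 0.81 without pad4 est1b replicate 3 and 0.34 without pad4 replicate 3. A second probe set, assigned to AT3G63340 and its neighbour AT3G63320 together, was too dim to be kept, with 6.50, 10.2 and 4.69 units in pad4 est1b and 4.97, 12.1 and 1.02 units in pad4.

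**Figure D2:**
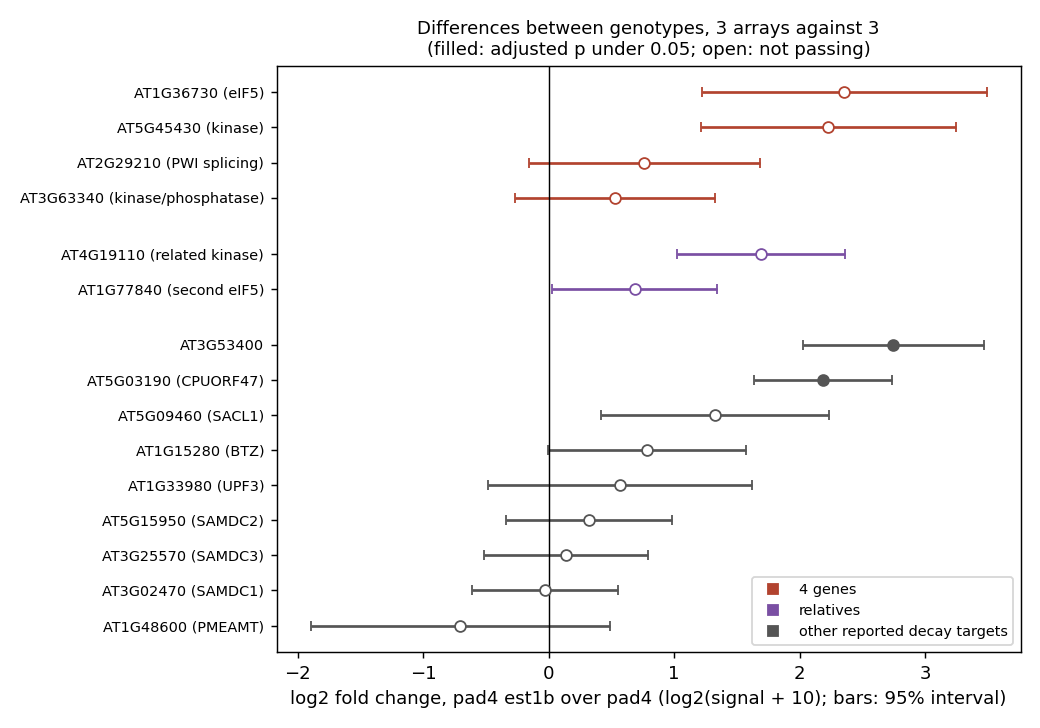
Log2 fold change, pad4 est1b over pad4, with its 95% interval for the 4 genes, for the related kinase AT4G19110 and the second eIF5 gene AT1G77840, and for 9 other reported decay targets; filled points have an adjusted p under 0.05 by limma. The 4 genes and both relatives have positive values with open points, from 0.53 for AT3G63340 to 2.35 for AT1G36730, and AT3G53400 and CPUORF47 are filled.

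The same-numbered arrays of the genotypes can be set side by side, although the labels do not say that a number marks a shared batch. AT1G36730 was 4.34, 5.47 and 7.82 times as high in pad4 est1b as in pad4 for replicates 1, 2 and 3. For AT5G45430 these ratios were 4.30, 3.85 and 7.81. The ratios of AT2G29210 were 1.51, 2.12 and 2.02, and those of AT3G63340 were 1.36, 2.29 and 1.52. All 12 ratios were above 1, but they share the same arrays and come from genes chosen with earlier results known. The share of all probe sets with such ratios is not given here. For the eIF5 and kinase genes the ratio of the replicate 3 arrays was the highest.

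Arrays of 1 genotype differed from each other as well. AT1G36730 differed 2.34-fold between the highest and lowest array of pad4 est1b and 4.21-fold within pad4. AT5G45430 differed 1.87-fold within pad4 est1b and 3.40-fold within pad4. Replicate 3 minus replicate 1 on the log2 scale was -1.20 in pad4 est1b and -1.83 in pad4 for AT1G36730, against a median over all probe sets kept of -0.07 and -0.26. It was -0.89 and -1.61 for AT5G45430 and -1.01 and -1.27 for AT2G29210. AT3G63340 had -0.51 and -0.54. The 3'/5' ratio was lowest on the replicate 1 array of each genotype, and its part in these differences was not tested.

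The eIF5 and kinase genes had nearly the same profile over the 6 arrays. Likeness was measured as the root mean square distance between log2 profiles after the mean of each was subtracted, over 6 arrays and against the other 6891 probe sets with 1 gene. AT1G36730 and AT5G45430 were each other's nearest profile, at a distance of 0.17 log2 units. Their fold changes differed by 0.13 on the log2 scale, with overlapping groups (exact two-sided permutation p = 0.6 over 3 and 3 arrays). Since the measure takes in the difference between genotypes, it repeats in part what the fold changes show.

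Next to AT1G36730 came AT4G23050, which encodes a kinase with a PAS domain, at 0.40, and AT4G11000, which encodes an ankyrin repeat protein, at 0.41. Next to AT5G45430 came AT4G11000 at 0.31 and AT1G10610, a bHLH transcription factor gene, at 0.32. These 3 genes had log2 fold changes of 1.63 for AT4G23050, 1.98 for AT4G11000 and 1.82 for AT1G10610, none passing (limma adjusted p from 0.31 to 0.82). Their pad4 means were under the filter, at 16.7 units for AT4G23050, 19.2 for AT4G11000 and 11.0 for AT1G10610, so they were kept through pad4 est1b, and their groups, which did not overlap, and fold changes are given as a description only. AT2G29210 lay nearest to AT3G12570 at 0.11, AT3G62310, an RNA helicase gene, at 0.11 and AT1G18390, a receptor-like kinase gene, at 0.11. AT3G63340 lay nearest to AT3G25210 at 0.11, AT5G64120, a peroxidase gene, at 0.13 and the transcription factor gene WRKY47 at 0.13. The last 6 genes had log2 fold changes between 0.48 (WRKY47) and 0.72 (AT3G12570 and AT3G62310), overlapping groups and a limma adjusted p of 1.00. Among them AT3G25210 was also kept through pad4 est1b, with a mean of 30.6 units there and 17.4 units, under the filter, in pad4.

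**Figure D3:**
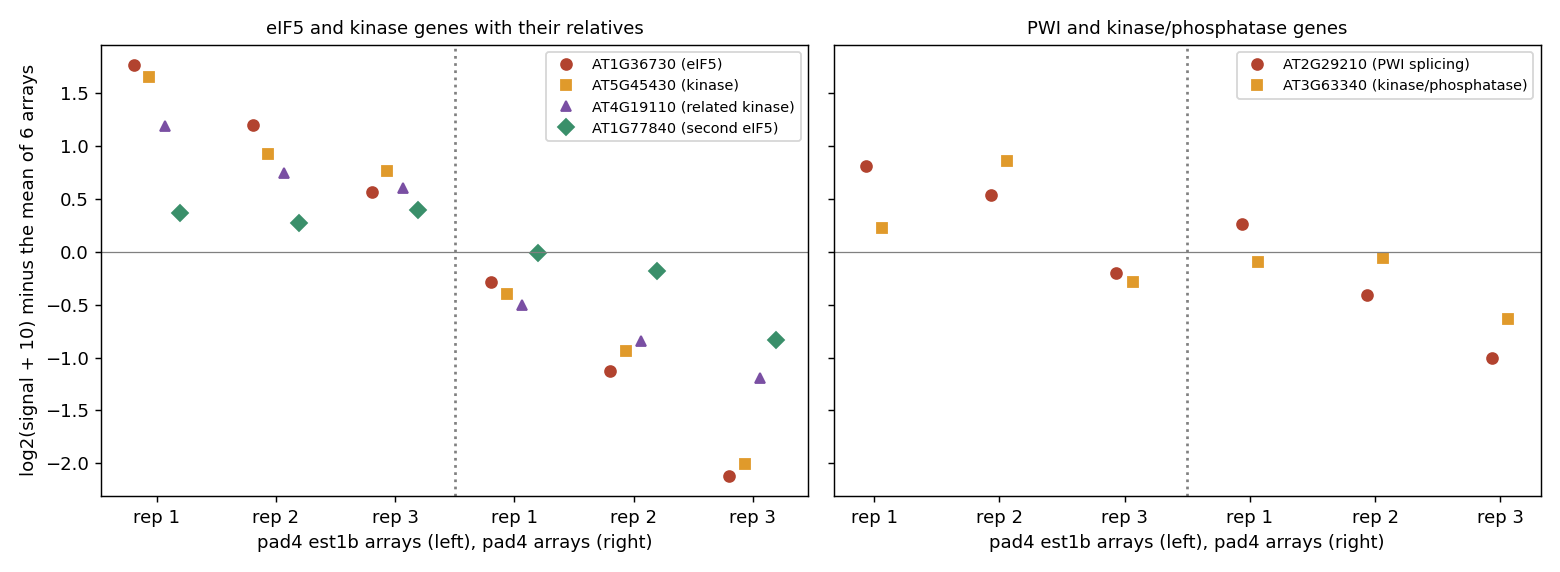
Log2(signal + 10) of each gene minus its mean over the 6 arrays, for pad4 est1b arrays (left of the dotted line) and pad4 arrays (right of it); rep is the replicate number. AT1G36730 and AT5G45430 lie close together on every array, while AT2G29210 and AT3G63340 span a smaller range.

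Relatives of 2 of the genes were also on the array. AT4G19110 encodes a kinase closely related to AT5G45430. Its signals were 478, 347 and 314 units in pad4 est1b replicates 1, 2 and 3, against 141, 109 and 83.4 units in pad4 replicates 1, 2 and 3. The groups did not overlap. Means were 380 ± 86.5 units in pad4 est1b and 111 ± 28.7 units in pad4 (SD, n = 3 each). The log2 fold change was 1.69 ± 0.29 (SE), the 28th highest of all probe sets kept, and did not pass (limma adjusted p = 0.27). AT4G19110 passed with the 3'/5' ratio, a block for the replicate number or array weights (limma adjusted p = 0.010, 0.0052 and 3.6e-04), and in no other alternative. Those fits called 0.281%, 0.547% and 8.9% of all probe sets higher, in that order. Its profile was the 6th nearest to AT5G45430 and the 6th nearest to AT1G36730. The fold change of AT5G45430 was larger by 0.54 on the log2 scale, and the within-array differences of the 2 genes did not overlap between genotypes (exact two-sided permutation p = 0.1, the smallest possible). That difference was 0.27 without pad4 replicate 3, 0.32 without both replicate 3 arrays, 0.33 with array weights and 0.16 among the samples labelled 5.10 weeks.

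AT1G77840 is the other eIF5 gene. It had 174, 162 and 178 units in pad4 est1b replicates 1, 2 and 3, against 132, 116 and 70.2 units in pad4 replicates 1, 2 and 3. The groups did not overlap, and the pad4 est1b arrays lay close together. Its log2 fold change of 0.69 ± 0.29 (SE) did not pass (limma adjusted p = 1.00), and was 0.44 without pad4 replicate 3, 0.41 without both replicate 3 arrays and 0.36 among the samples labelled 5.10 weeks. The fold change of AT1G36730 was larger than that of AT1G77840 by 1.67 on the log2 scale, again without overlap of the within-array differences (exact two-sided permutation p = 0.1, the smallest possible), and by 1.11 among the samples labelled 5.10 weeks. MHK (AT4G13020), a further relative of AT5G45430, and AT3G63330 had no probe set of their own in the annotation.

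Of the 45 listed translation initiation factors, the group eIF5 works in, 16 had a probe set of their own and 12 were bright enough. None was called in either direction by limma, and the median log2 fold change was 0.22. At an unadjusted p under 0.05 limma gave 1 of the 12, AT1G77840, against 4.44% of all probe sets, and it is lost when any single array but pad4 replicate 1 is left out. The next smallest p was that of AT1G21160, an eIF5B gene, with 83.4, 18.8 and 17.4 units in pad4 est1b and 25.7, 2.07 and 0.985 units in pad4 (log2 fold change 1.32 ± 0.60 SE, limma adjusted p = 1.00). Its groups overlapped and its pad4 mean lay under the filter.

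Splicing and kinase lists were thinly covered by the annotation. Of 32 splicing factors 5 could be read and tested and none was called, with a median of 0.05, 0.27 for ATU2AF35A and 0.13 for ATU2AF65A, subunits that recognise the 3' splice site, and 0.05 for AT1G60200, a relative of the PWI protein RBM25. None of the 5 had an unadjusted p under 0.05 by limma. Of 14 CMGC kinases 2 could be read, AT4G19110 and AME3 (AT4G32660), a LAMMER-type kinase with 0.53 ± 0.41 (SE), and neither was called; at an unadjusted p under 0.05 limma gave 1, AT4G19110. The annotation gave no gene of the 15 listed PP2C phosphatases a probe set of its own, so none could be read.

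Among 18 other reported decay targets, 10 had a probe set of their own and 9 were kept. Of these 9, 2 were called higher and 0 lower by limma, against 0.0391% of all probe sets called higher. Positive values were found for 7, against 54.6% of all probe sets, and the median log2 fold change was 0.57. This list too was chosen with earlier results of these data known, so these comparisons are a description only. The 2 called were AT3G53400, which has a conserved upstream reading frame, with 2.75 ± 0.31 (SE), and CPUORF47, with 2.19 ± 0.24 (SE), both with a limma adjusted p of 0.0495. These calls sit at the threshold: of 20 alternatives AT3G53400 was called in 8 and CPUORF47 in 7, and neither without any single array but pad4 replicate 3, without the offset or the filter, after quantile normalization or median centring, with the stage label, among the 5.10 samples, or after dropping cross-hybridising probe sets (limma adjusted p up to 0.55 for AT3G53400 and 0.86 for CPUORF47). The CPUORF47 value of pad4 was under the filter (16.4 ± 0.60 units, SD, n = 3). Fold changes of AT1G36730 and AT5G45430 were close to these 2 in size but had standard errors of 0.49 and 0.44.

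The remaining targets of that list did not pass. SACL1 (AT5G09460) had 1.32 ± 0.40 (SE) with groups that did not overlap. The values were 0.79 for BTZ (AT1G15280), an exon junction component, and 0.57 for UPF3, and for enzymes of polyamine synthesis 0.32 for SAMDC2 (AT5G15950), 0.14 for AT3G25570 and -0.03 for SAMDC1 (AT3G02470). PMEAMT, a phosphocholine enzyme gene, had -0.70. AT5G50010 was too dim to be kept. Of 10 listed decay and exon junction factors 5 could be read and none was called or had an unadjusted p under 0.05 by limma, with a median of 0.18; BTZ and UPF3, which are on both lists, had the smallest p-values.

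**Figure D4:**
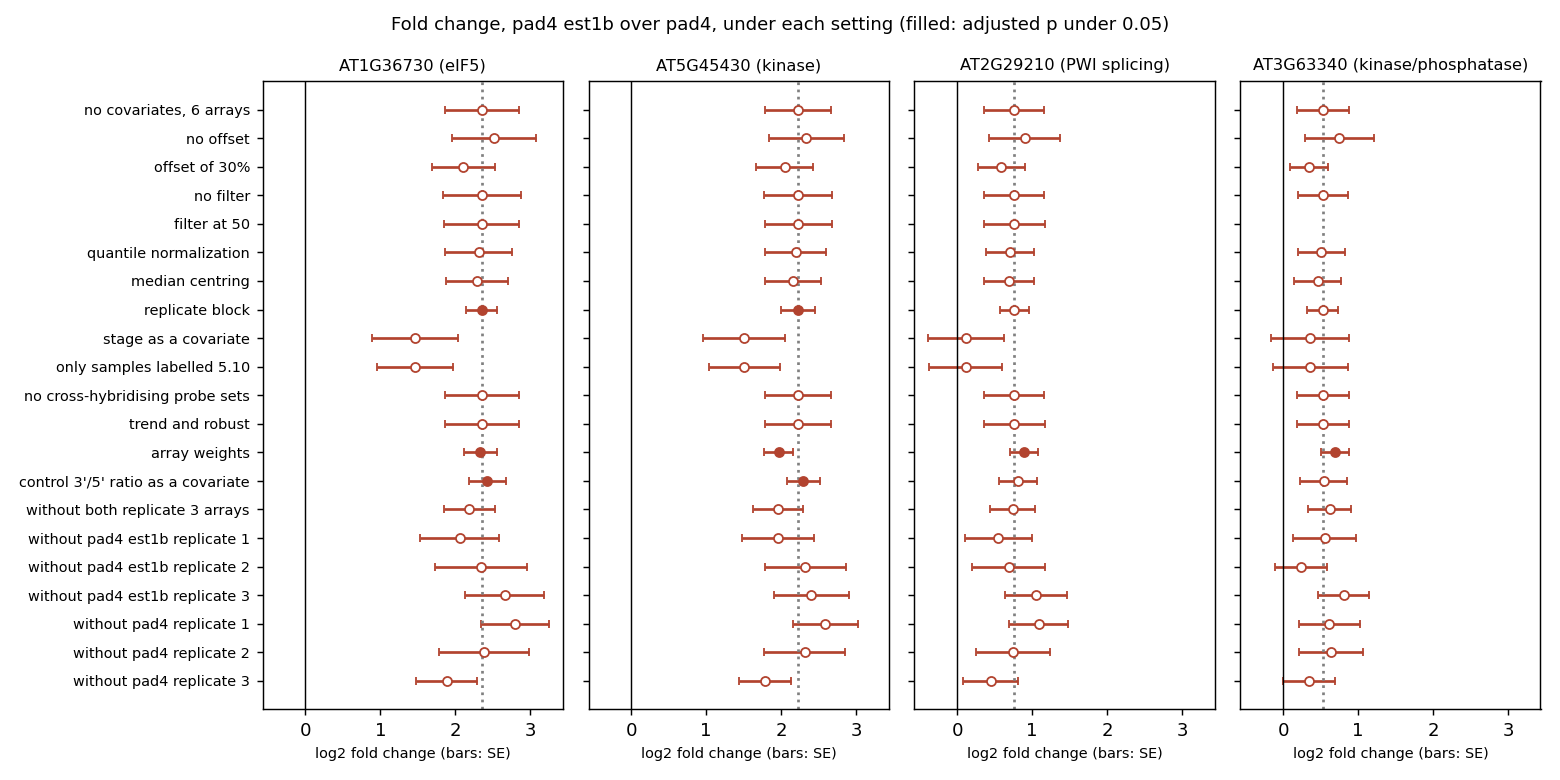
Log2 fold change of each gene, pad4 est1b over pad4, with its SE, under the fit without covariates on 6 arrays (top row, dotted line) and under 20 alternatives (19 for AT3G63340, which a filter at 50 removes); filled points have an adjusted p under 0.05 by limma. All values are above 0, although the filter, replicate block, cross-hybridising, and trend and robust settings cannot change a gene's value. The 2 settings that use the stage label give the lowest values for AT1G36730, AT5G45430 and AT2G29210. Filled points appear with the replicate block, the 3'/5' ratio and the array weights. These fits called 0.547%, 0.281% and 8.9% of all probe sets higher, in that order, and the array weights did not converge.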

How the data were processed

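Leaf RNA was purified on Qiagen columns and biotin-labelled with the 3' IVT Express kit, which starts from the poly(A) end, per the labels' protocols. The authors deposited 1 linear intensity (signal) per probe set. MAS5 and GCOS appear in the submitters' processing notes, and their versions and settings are not given in these sources. The values show that each array was scaled to a 2%-trimmed mean of 100.0. Groups and replicate numbers come from the sample titles.

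Probe sets were named through the platform annotation: of 22810, 13513 have 1 gene and 503 several. Of the 13513, 13484 were found in the TAIR10.1 gene table, used for names and neighbours only; coordinates are left out because the array annotation names no build. No sequence tables were at hand.

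An offset of 10 units was added before log2. Controls and probe sets with a mean under 20 units were left out, which kept 12804. Groups were compared with limma 3.58.1 in R 4.3.3 (lmFit, eBayes, two-sided tests, genotype as the only term), with Benjamini-Hochberg adjustment over all probe sets kept and a threshold of 0.05; the script was tested on simulated data. Precision is limited by 3 arrays per group. Figures were drawn with matplotlib 3.10.9 in Python 3.11.15.

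The members, lists and alternatives were chosen with earlier results of these data known. Named were all probe sets of the 4 genes, their relatives and neighbours, all readable other decay targets, up to 2 genes by p-value of the other lists, and for each gene the 3 nearest profiles. AT1G60200 was named after its value was seen. Alternatives changed the offset, filter, normalization, covariates, variance model and arrays used. A check of the mutated locus is not reported here.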

Additional observations from a re-analysis of the deposited data

How the results depend on the processing

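All 4 genes kept a positive value in every alternative run. Changing the filter, using a trended and robust variance model, adding the replicate block or dropping cross-hybridising probe sets cannot change a gene's fold change. Both stage settings give the same value for each gene, so the alternatives are not independent checks. How many of all probe sets keep a positive value was not counted. Over 20 alternatives the log2 fold change ran from 1.47 to 2.80 for AT1G36730, 1.51 to 2.59 for AT5G45430 and 0.11 to 1.09 for AT2G29210, and over 19 from 0.24 to 0.81 for AT3G63340. The adjusted p by limma ran from 3.5e-04, 4.6e-04, 0.012 and 0.032 for these 4 genes to 1.00 for each. Those lowest values all came from the array weights. The next lowest limma adjusted p, from the replicate block, was 0.0016, 0.0037, 0.13 and 0.31, so AT2G29210 and AT3G63340 passed with array weights only. The cause of the changes below was not tested.

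Under a replicate block, limma's calls came to 81 probe sets and 2 of the 4 genes, AT1G36730 (2.35, adjusted p = 0.0016) and AT5G45430 (2.23, adjusted p = 0.0037). Between arrays of one number, deviations from the genotype mean had correlations of 0.83 (replicate 1), 2e-04 (replicate 2) and 0.68 (replicate 3). In each genotype the replicate 2 array lay between the others on the first principal component, so its low correlation cannot decide whether numbers mark pairs. The labels do not say that a number marks a shared batch, and the numbers were not taken as pairs. Adding the 3'/5' ratio, limma called 36 probe sets and 2 of the 4 genes (2.43 for AT1G36730 and 2.30 for AT5G45430). With array weights, which did not converge and ran from 0.164 for pad4 replicate 3 to 26.6 for pad4 replicate 2, it called 2274 probe sets and all 4 genes (2.34 for AT1G36730, 1.97 for AT5G45430, 0.89 for AT2G29210 and 0.69 for AT3G63340).

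Against 5 probe sets called, 0 were called without the offset, without the filter, with median centring, with the stage label in the fit, within the 5.10 samples and after dropping cross-hybridising probe sets, 2 after quantile normalization and 19 without both replicate 3 arrays. With single arrays left out, 0 to 9 probe sets and 0 of the 4 genes were called: 9 without pad4 replicate 3, 1 without pad4 est1b replicate 1, and 0 without each of the others. The median of the 4 genes was 2.23 with a filter at 50 units, which leaves 3 of them, and 1.12 to 1.84 with single arrays left out. The shared AT3G63340 probe set gave 0.14.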

Other observations

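The 12 control probe sets for Bacillus subtilis transcripts give a scale for dim signals. Their highest value on any array was 11.3 units, in pad4 est1b replicate 2, and 7.55 units among the pad4 arrays, in replicate 3. The dimmest value of the AT3G63340 probe set, 11.7 units in pad4 replicate 3, lay close to this range, and its other 5 values were higher. All values of AT1G36730, AT5G45430 and AT2G29210 lay above it. Whether these control transcripts were added to the samples is not stated in the labels.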
